A study of Mus musculus with 2 samples.

Results

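Germ cells of the mouse fetal testis that carried 2 or more Nanos2 molecules at E13.5 were set against germ cells of the same library that carried none. A cell here is a droplet barcode, and a molecule is a UMI, a transcript counted once by its molecular identifier. A barcode was taken as a germ cell where it held 500 or more genes, 5000 or more UMIs, under 10% mitochondrially encoded UMIs and at least 0.2% of UMIs from Dazl, Pou5f1, Dppa3 and Dppa5a together. Of the 2992 E13.5 barcodes, 2549 met this rule, and 381 of them held 2 or more Nanos2 UMIs (14.9%, 95% exact binomial interval 13.6 to 16.4%). These 381 are called Nanos2-positive cells below. A further 1667 germ cells held 0 Nanos2 UMIs and served as the comparison, and 501 held exactly 1 and entered neither group. The whole series held 5839 barcodes. The cells were selected on their Nanos2 UMIs, and germ cells on the 4 transcripts named above, so the levels of these genes are given only as a description.

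The study made 1 library at E12.5 and 1 at E13.5, each from male germ cells of CD1 mouse embryos, an outbred stock. Cells were sorted for the green fluorescence of an Oct4-GFP reporter, which marks cells that transcribe Pou5f1, and libraries followed the 10x v2 protocol, a droplet assay of transcript 3′ ends. The Nanos2-positive cells and the comparison cells therefore shared stage, strain, sex, sort and library. The labels used here do not give how many embryos were pooled. No replicate library was made at either stage and nothing could be tested, so intervals below cover counting error only, and E12.5 values are set beside the E13.5 values as levels of another library.

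Nanos2 is an RNA-binding zinc finger protein made by male germ cells once they settle in the fetal testis. It binds selected transcripts and brings them to the CCR4-NOT deadenylase, which shortens poly(A) tails, and it gathers in P-bodies, granules of untranslated RNA. Male germ cells without it are known to enter meiosis and to be lost, and it later keeps spermatogonial stem cells. In the same days male germ cells leave the mitotic cycle and shut down their pluripotency transcripts.

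Nanos2 is a single-exon gene at chr7:18987400-18988962 on the plus strand (GENCODE M21, GRCm38). The 120 bases just before the RefSeq start (GRCm38.p6) are shown for Nanos2 and for 3 genes that were at least 2-fold higher beside it: Egr4 (gene at chr6:85511121-85513589, minus strand, 2 exons), Gtsf1 (chr15:103402405-103430470, minus strand) and Nanos3 (chr8:84173731-84185217, minus strand). They let a reader compare the sequence before the RefSeq start of genes whose transcripts were higher in the same cells. The Nanos3 window lies inside the longer GENCODE span given above, so it is not upstream of that span. Capitals mark CpG, the dinucleotide CG, which reads the same on both strands, and each line runs 5′ to 3′ on the gene's strand.
Nanos2, chr7:18987280-18987399: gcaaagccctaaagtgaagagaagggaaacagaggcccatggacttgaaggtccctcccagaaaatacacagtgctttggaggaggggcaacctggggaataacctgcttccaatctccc
Egr4, chr6:85513590-85513709: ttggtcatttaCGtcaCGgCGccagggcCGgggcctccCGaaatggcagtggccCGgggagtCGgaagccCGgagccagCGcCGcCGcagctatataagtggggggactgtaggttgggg
Gtsf1, chr15:103430471-103430590: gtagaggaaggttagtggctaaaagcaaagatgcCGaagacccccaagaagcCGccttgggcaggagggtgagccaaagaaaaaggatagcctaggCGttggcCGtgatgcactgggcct
Nanos3, chr8:84176553-84176672: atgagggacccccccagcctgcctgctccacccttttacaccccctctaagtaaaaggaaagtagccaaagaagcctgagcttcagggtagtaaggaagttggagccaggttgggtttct
The Nanos2 and Nanos3 windows held 0 CpG, as did 17.8% of the 32851 windows of that length in the RefSeq table. The Gtsf1 window held 4, a number reached by 47.2% of windows. The Egr4 window held 11, a number reached by 20.2% of windows.

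Nanos2 molecules were few in every cell. Among the 2549 germ cells, 1667 held 0 Nanos2 UMIs, 501 held 1, 236 held 2, 78 held 3, 39 held 4, 19 held 5, 5 held 6 and 4 held 7. The Nanos2-positive cells held 1015 of the 1516 germ-cell Nanos2 UMIs (67.0%), and their summed Nanos2 level was 113 CPM (counts per 1000000 UMIs). The rule's threshold falls between the 501 cells with 1 UMI and the 236 with 2. The level in the 1-UMI cells lay between those of the other groups for 185 of the 187 genes called higher below and 374 of the 383 called lower. These genes were picked for a difference between those 2 groups, so this order is a description only. When every cell was thinned to 14500 UMIs, 205 of 361 Nanos2-positive cells kept 2 or more Nanos2 UMIs, 115 kept 1 and 41 kept 0. A count of 0 thus does not show that a cell lacked Nanos2 transcript. At E12.5, 19 of 2494 germ cells held any Nanos2 UMI and 1 held 2 or more.

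**Figure D1:**
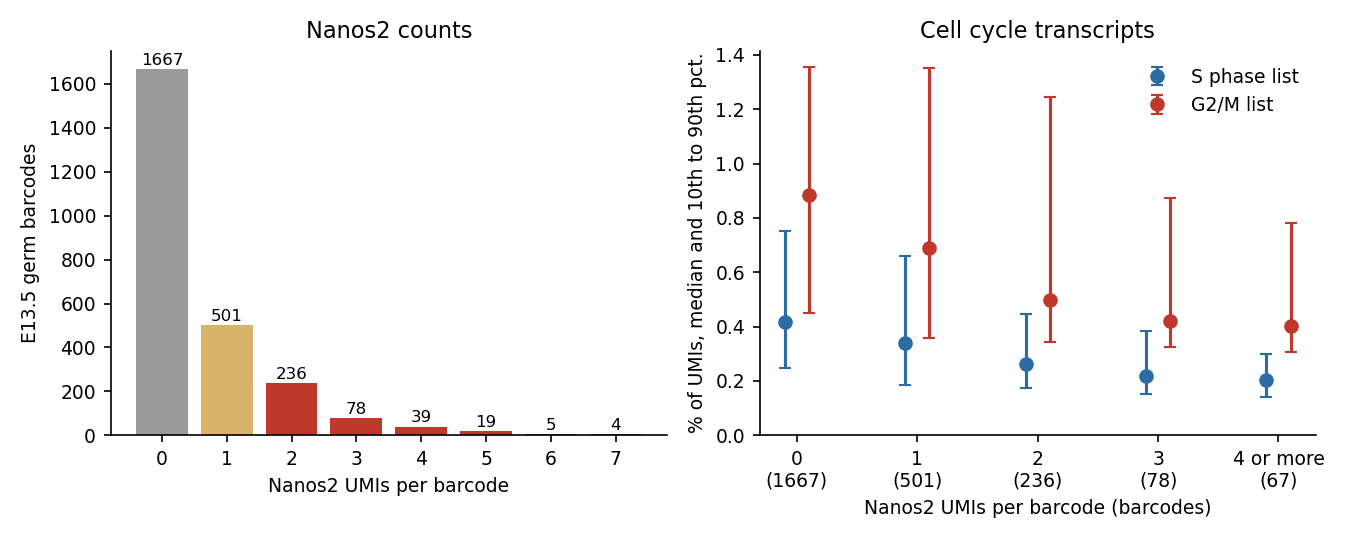
Left, E13.5 germ barcodes by Nanos2 UMIs per barcode, with 1667 at 0, 501 at 1 and 381 at 2 or more. Right, the percentage of each barcode's UMIs from the S phase list (blue) and the G2/M list (red), as median with 10th to 90th percentile, by Nanos2 count; both medians are lower in each higher class, from 0.417% and 0.884% at 0 UMIs to 0.204% and 0.403% at 4 or more.

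Germ cell transcripts that the rule did not use were present in the Nanos2-positive cells. Ddx4, a germline RNA helicase, stood at 165 CPM in them and 140 CPM in the 0-UMI cells. Dnd1, an RNA-binding partner of the Nanos proteins, stood at 232 and 194 CPM. Sox2 was at 98.1 and 104 CPM. None of these 3 differed by 1.5-fold. Of the 9 germ markers listed, the rule's own included, 8 lay within 1.5-fold and Tfap2c was lower (5.46 against 13.6 CPM), and the summed level was 7101 and 7466 CPM. The label's other markers, Egr4, Ptgr1, Gmpr and Bnc2, were all higher in the Nanos2-positive cells, as set out below. These markers were chosen with earlier results of these data known, so their levels are a description and no support for the label.

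Egr4 and Bnc2 had no UMI in the 24 barcodes of the E13.5 table with Sertoli markers, and Nanos2 had none there either (0 of 24, an upper exact binomial bound of 14.2% on barcodes with a UMI, not on expression). Ptgr1 was seen in 22 of those 24 barcodes and Gmpr in 20, at a median depth of 10760 UMIs. Ptgr1 stood there at 277 CPM (218.9 to 345.7) and Gmpr at 152.7 CPM (110.5 to 205.7). Both were above their levels in the Nanos2-positive cells, 108 and 78.0 CPM. Neither Ptgr1 nor Gmpr therefore marks germ cells by itself.

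Other cell types left little RNA in the Nanos2-positive cells. The summed level of 8 Sertoli markers was 10.0 CPM (8.07 to 12.3) against 12.8 CPM (11.6 to 13.9) in the 0-UMI cells, that of fetal Leydig markers 0.446 and 0.658 CPM, and that of macrophage markers 0.558 and 0.579 CPM. Surface epithelial markers summed to 3.68 and 3.37 CPM, interstitial to 0.558 and 0.474 CPM, mesonephric to 1.23 and 0.421 CPM, and mural to 0.335 and 0.342 CPM. Hsd3b1, Cyp11a1, Col3a1, Dcn, Alas2, Pax2 and Rgs5 were at 0 UMIs in the Nanos2-positive cells. Erythroid markers summed to 23.2 CPM against 342 CPM, but 1 cell of the 0-UMI group held 12131 of its 13000 erythroid UMIs. Without that cell the embryonic globin Hbb-y was higher in the Nanos2-positive cells (log2 0.26). Endothelial markers summed to 34.7 and 52.2 CPM, and the 2 that were measured at 10 CPM or more were lower: Pecam1, which early germ cells also transcribe, at 17.8 against 29.5 CPM, and Cldn5 at 5.69 against 11.6 CPM.

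The UMIs and genes counted per cell differed little, while the share from dividing-cell transcripts differed much. The median cell held 21763 UMIs and 4330 genes in the Nanos2-positive group, and 21788 UMIs and 4354 genes in the 0-UMI group. Mitochondrially encoded UMIs made up a median of 4.90% and 4.59%. Transcripts of an S phase list made up a median 0.246% of UMIs in the Nanos2-positive cells, 0.338% in the 1-UMI cells and 0.417% in the 0-UMI cells. For a G2/M list these medians were 0.462%, 0.691% and 0.884%. Of the 381 Nanos2-positive cells, 52 (13.6%, 10.4 to 17.5%) lay above the 0-UMI group's median G2/M share, and 37 (9.71%, 6.93 to 13.1%) lay above its median S phase share. Nanos2-positive cells with a high share still existed: 18 lay above the 90th percentile of the 0-UMI cells for G2/M and 7 for S phase. Further comparisons at closer cell cycle share were therefore made beside the main comparison of all cells. They are called comparisons at like cell cycle share below, but the shares were not made equal. In the weighted comparison the 0-UMI cells were weighted to the S phase and G2/M shares of the Nanos2-positive cells. The bins were set at quartiles of the 0-UMI cells. The median S phase share of the Nanos2-positive cells (0.246%) lay below the 10th percentile of the 0-UMI cells (0.248%). In the comparison of low-cycle cells, a choice made after seeing the data, both groups were restricted to cells at or below both medians. This kept 305 Nanos2-positive cells (80.0%) and 414 0-UMI cells (24.8%). Among them the division transcripts Mki67 and Rrm2 still differed, at 22.35 against 41.22 CPM and 3.21 against 7.36 CPM.

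Of 6834 genes at 10 CPM or more over all E13.5 germ cells, Nanos2 left out, 187 (2.74%) were at least 1.5-fold higher in the Nanos2-positive cells and 383 (5.60%) at least 1.5-fold lower, in each case with a counting interval of the ratio that left out 1. The median log2 ratio of all 6834 was -0.03, and 91.7% lay within 1.5-fold. The counts called in each list below stand beside the shares of 2.74% and 5.60%. At 1.3-fold the numbers were 514 (7.52%) higher and 874 (12.8%) lower. The 10 CPM minimum was taken over all germ cells, where 0-UMI cells gave 37969457 UMIs and Nanos2-positive cells 8966398. Genes high mainly in Nanos2-positive cells could thus miss it, as Nab2 did (15.4 against 3.85 CPM). Tfap2c, at 5.46 against 13.6 CPM, passed. At a 2 CPM minimum 639 genes were higher and 778 lower. With a denominator that left out mitochondrially encoded, ribosomal protein and the 50 most abundant genes, the split was 266 higher and 306 lower. In the weighted comparison 24 genes were higher and 59 lower, and 21 and 51 of the main calls remained. Among low-cycle cells the numbers were 66 and 132, with 47 and 108 of the main calls. Most of the calls were therefore not reached between cells of like cell cycle share, and calls that were lost or gained at like cell cycle share are given with the gene groups below.

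**Figure D2:**
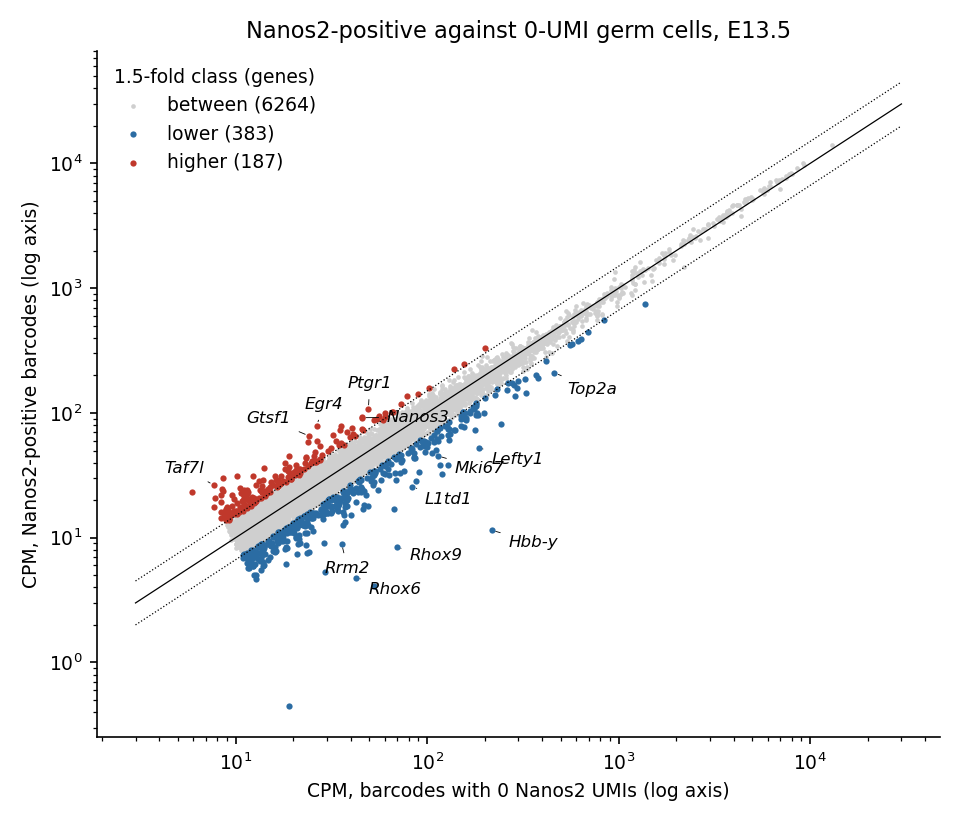
Each point is a gene at 10 CPM or more over E13.5 germ barcodes, with its summed level in barcodes with 0 Nanos2 UMIs (horizontal, CPM, log axis) and in Nanos2-positive barcodes (vertical, CPM, log axis). Red marks the 187 genes at least 1.5-fold higher and blue the 383 at least 1.5-fold lower; Egr4 and Gtsf1 lie above the diagonal, and Rhox6, Rhox9, Lefty1 and L1td1 below it.

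Egr4, a zinc finger transcription factor of the early growth response family, led the genes at 20 CPM or more. Its level was 79.1 CPM (73.4 to 85.1) in the Nanos2-positive cells and 26.5 CPM (24.9 to 28.2) in the 0-UMI cells, a ratio of 2.98. The 1-UMI cells stood between, at 46.8 CPM, and within the Nanos2-positive cells the level was 71.0 CPM at 2 Nanos2 UMIs, 83.5 CPM at 3 and 101 CPM at 4 or more. At E12.5 it was 1.21 CPM. After thinning to equal depth, Egr4 was seen in 65.4% of Nanos2-positive cells, 46.4% of 1-UMI cells and 29.5% of 0-UMI cells (78.7% and 38.6% of the Nanos2-positive and 0-UMI cells without thinning). The ratio was 1.84 in the weighted comparison and 2.03 among low-cycle cells, so Egr4 stayed past 1.5-fold in both. EGR proteins are held in check by the NAB corepressors, which are induced with them. Over all germ cells Nab2 was below the 10 CPM minimum (6.68 CPM), though it was at 15.4 CPM in the Nanos2-positive cells against 3.85 CPM. Nab1 was higher at 14.9 CPM against 8.98 CPM (1.66-fold).

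Among the other markers given for these cells, Ptgr1, a reductase that inactivates prostaglandins and leukotriene B4, was at 108 and 49.3 CPM (2.18-fold, 2.01 to 2.36). Gmpr, which converts GMP back to IMP in purine salvage, was at 78.0 and 35.5 CPM (2.20-fold, 2.003 to 2.41). Bnc2, a zinc finger protein of germ and skin cells, was at 73.9 and 45.5 CPM (1.62-fold, 1.48 to 1.78). In the 1-UMI cells these 3 stood at 77.7, 63.3 and 64.1 CPM. Ptgr1 kept 1.47-fold in the weighted comparison and 1.51-fold among low-cycle cells, Gmpr 1.39- and 1.41-fold, and Bnc2 1.20- and 1.36-fold. Only Ptgr1 of the 3, among low-cycle cells, was still past 1.5-fold. All 4 of Egr4, Ptgr1, Gmpr and Bnc2 were seen together in 76 of 361 thinned Nanos2-positive cells (21.1%, 17.0 to 25.6%), 67 of 472 1-UMI cells (14.2%) and 87 of 1491 0-UMI cells (5.84%). None of the 4 was seen in 10 (2.77%), 22 (4.66%) and 320 (21.5%) cells of those groups. Many Nanos2-positive cells thus showed only some of the markers, and some 0-UMI cells showed all. After thinning, each marker taken alone was seen in only 61.8% (Bnc2) to 72.0% (Ptgr1) of Nanos2-positive cells. A marker not seen in a cell therefore does not show that the cell lacked it.

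The remaining genes with the largest ratios came from several functions. Anxa7, an annexin that binds calcium and membranes, was at 58.4 and 23.9 CPM (2.45-fold). Rsph9, a radial spoke protein of cilia and flagella, was at 45.3 and 19.1 CPM (2.37-fold). Lzts2, a leucine zipper protein that restrains beta-catenin signalling, was at 60.0 and 26.5 CPM (2.27-fold). After weighting, Anxa7 was 1.52-fold, Rsph9 1.46-fold and Lzts2 1.44-fold higher, and among low-cycle cells 1.66-, 1.70- and 1.57-fold.

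Krt17, a keratin that was at 0.318 CPM at E12.5, stood at 72.4 and 35 CPM (2.07-fold), and kept 1.64-fold in both the weighted comparison and low-cycle cells. Acly, the enzyme that makes cytosolic acetyl-CoA from citrate, was at 66.2 and 32.2 CPM (2.06-fold, 1.47-fold weighted and 1.60-fold among low-cycle cells). C1ql1, a secreted C1q-like protein, was at 92.3 and 45.5 CPM (2.03-fold, 1.40-fold weighted and 1.44-fold among low-cycle cells). Krt17 and C1ql1 were also above their E12.5 levels in the 0-UMI cells.

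**Figure D3:**
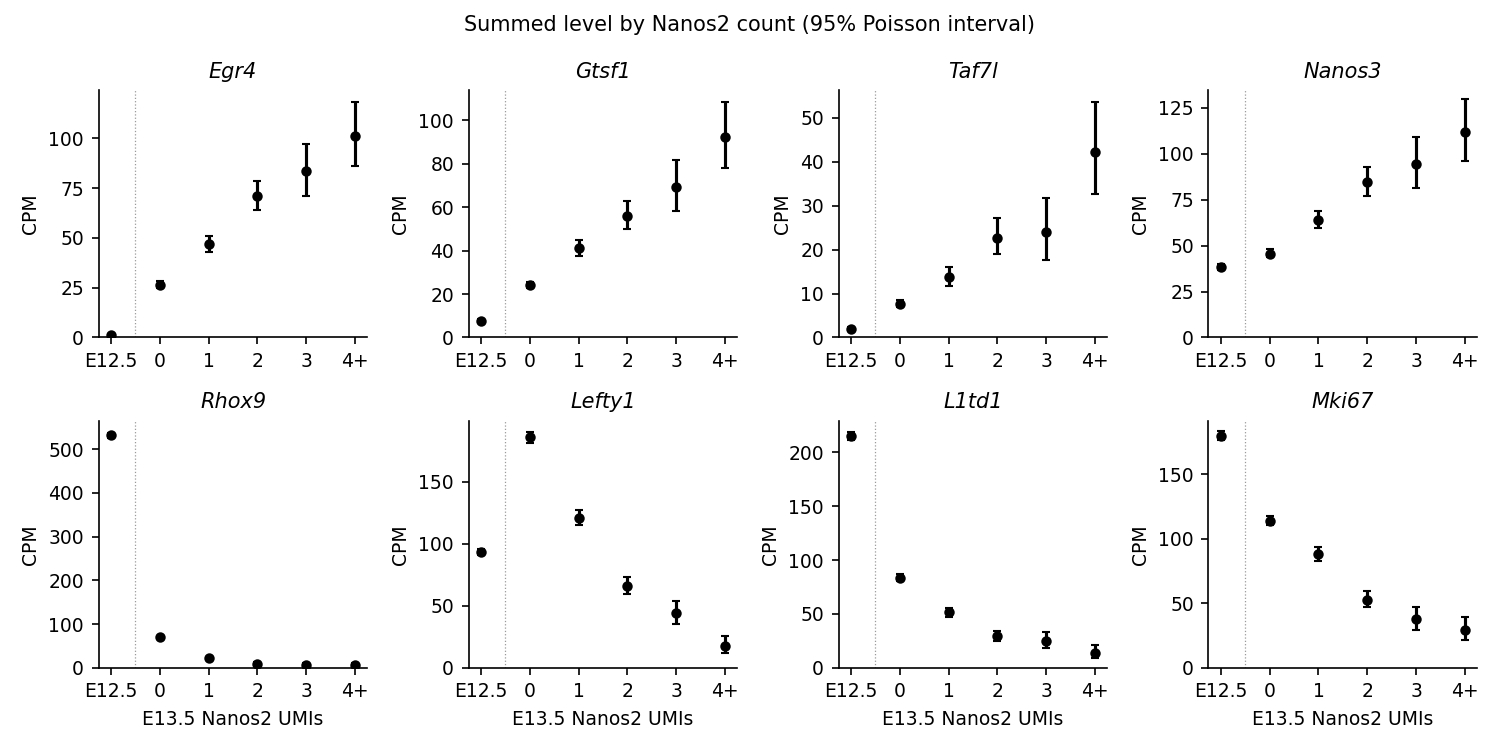
Summed level in CPM, with its 95% Poisson interval, in E12.5 germ barcodes and in E13.5 germ barcodes by Nanos2 count (0, 1, 2, 3, 4 or more), 1 panel per gene. Egr4 goes from 1.21 CPM at E12.5 to 26.5 CPM at 0 Nanos2 UMIs and 101 CPM at 4 or more, while Rhox9 goes from 532 to 69.5 and 5.66 CPM.

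Nanos3, the family member that protects primordial germ cells before Nanos2 is made, was higher together with Nanos2. It stood at 91.7 CPM (85.5 to 98.2) in the Nanos2-positive cells and 45.7 CPM (43.6 to 47.9) in the 0-UMI cells, a ratio of 2.01 (1.84 to 2.18). By Nanos2 count it was 64.1 CPM at 1, 84.8 at 2, 94.2 at 3 and 112 at 4 or more, beside 38.1 CPM at E12.5. Its ratio was 1.44 in the weighted comparison and 1.71 among low-cycle cells. Nanos3 was the only higher gene of 17 measured germline RNA-binding proteins, whose median log2 ratio was 0.05 beside -0.03 for all genes. Ythdc2, the helicase that carries germ cells into meiosis, was the only lower gene of that list, at 12.7 and 21.1 CPM, and was not called in either comparison at like cell cycle share (ratios 0.897 and 0.790).

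Genes of the machinery through which Nanos2 is known to act were seldom called, as were genes at large, of which 91.7% lay within 1.5-fold. None of 15 measured genes of the CCR4-NOT deadenylase and its partners reached 1.5-fold, their summed level was 719 CPM (701 to 737) against 731 CPM (722 to 739), and their median log2 ratio was -0.14. Cnot1, the scaffold of the complex, was at 77.4 and 88.3 CPM. Of 21 measured P-body and mRNA decay genes, 20 lay within 1.5-fold and Ago1, a small RNA-binding Argonaute, was lower at 9.93 against 17.7 CPM. After weighting none of either list was called, and among low-cycle cells Ago1 was.

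Factors of the piRNA pathway, which silences transposons in male germ cells through Piwi proteins and small RNAs, were higher on the whole in the main comparison. Of 13 measured genes 3 were called higher and 0 lower, beside 2.74% and 5.60% of all genes, and 12 had a ratio above 1. The median log2 ratio was 0.29, and the summed level was 1219 CPM (1197 to 1243) against 965 CPM (955 to 975). Gtsf1, a zinc finger protein that joins Piwi silencing complexes, was at 65.5 and 24.2 CPM (2.71-fold, 2.44 to 3.01). It stood at 41.1 CPM at 1 Nanos2 UMI, 56.2 at 2, 69.2 at 3 and 92.5 at 4 or more. Its ratio was 2.07 in the weighted comparison and 2.50 among low-cycle cells, and it was the 1 gene of the list called in either. Its paralog Gtsf1l was at 40.0 and 18.2 CPM (2.20-fold), but 1.13-fold when weighted and 1.32-fold among low-cycle cells.

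The other higher genes of the pathway were Tdrd1 (15.8 and 9.03 CPM, 1.75-fold) and Tdrd5 (141 and 89.2 CPM, 1.58-fold), both Tudor proteins of the germ granules. Piwil2, a Piwi protein of fetal germ cells, was at 38.1 and 25.9 CPM, under 1.5-fold (1.47). The Piwil2 ratio was 1.09 in the weighted comparison and 1.22 among low-cycle cells. Ddx25, a helicase of male germ cells, was higher at 57.9 and 35.5 CPM, a call not reached in either comparison at like cell cycle share. Of 8 measured male germline genes it was the 1 higher, and 2, Lefty1 and Lefty2, were lower. These counts stand beside 2.74% and 5.60% of all genes. The median log2 ratio of that list was 0.18, while its summed level was 560 against 685 CPM.

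Taf7l, an X-linked form of the general transcription factor subunit Taf7 used in male germ cells, had the largest ratio of the genes tied by earlier work to Nanos2. It was at 26.4 CPM (23.2 to 30.0) and 7.69 CPM (6.83 to 8.62), a ratio of 3.44 (2.88 to 4.09), and 1.91 CPM at E12.5. Within the Nanos2-positive cells it was 22.7 CPM at 2 UMIs, 23.9 at 3 and 42.2 at 4 or more. Its ratio was 1.87 when weighted and 2.34 among low-cycle cells. Of the other genes of that list, Sycp3, a lateral element protein of meiotic chromosomes, was at 74.0 and 52.9 CPM (1.40-fold). Dazl, which served to define germ cells, was at 1156 and 1172 CPM. Stra8, the gene that opens meiosis, was below the minimum at 2.68 CPM (1.72 to 3.98) and 2.48 CPM (2.0 to 3.03), and was seen in 3.05% and 2.21% of thinned cells (4.72% and 2.999% without thinning). At this depth no difference in Stra8 was detectable. Dnmt3l, a later marker of male germ cells, had 7 UMIs in the Nanos2-positive cells, or 0.781 CPM against 0.105 CPM.

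Meiosis genes as a group did not move one way. Of 10 measured, 1 was higher and 2 were lower, beside 2.74% and 5.60% of all genes, and the median log2 ratio was 0.04. Sycp1, the transverse filament of the synaptonemal complex, was higher at 246 and 157 CPM (1.57-fold), with 228 CPM already in the 1-UMI cells and 26.3 CPM at E12.5. Hormad1, a meiotic axis protein, was lower at 30.8 and 51.4 CPM (1.67-fold), as was Syce2, a central element protein, at 175 and 278 CPM (1.59-fold). None of the 10 was called in the weighted comparison, where Hormad1 was slightly higher (log2 0.06). Among low-cycle cells the 1 called gene was Sycp2, a lateral element protein, which was higher. Rec8, the meiotic cohesin, was below the minimum at 10.3 and 3.53 CPM. Among retinoic acid genes only 3 of the 16 listed were measured, and none was called. The receptor gene Rarg was below the minimum at 13.3 and 3.92 CPM, with 20.1 CPM at 4 or more Nanos2 UMIs.

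Nodal signalling, a TGF-beta type pathway that male germ cells switch on briefly, was lower at its inhibitors. All 5 measured genes of the list had a ratio below 1, with a median log2 of -0.28, and 2 were called lower: Lefty1 and Lefty2. Lefty1 and Lefty2 are near-identical secreted inhibitors of Nodal at chr1:180935022-180938400 and chr1:180893108-180899103, and reads may be divided uncertainly between them. Lefty1 was at 52.8 CPM in the Nanos2-positive cells and 186 CPM in the 0-UMI cells, 3.52-fold lower (3.21 to 3.87). It was at 121 CPM with 1 Nanos2 UMI, 66.3 with 2, 43.8 with 3 and 17.6 with 4 or more. At E12.5 Lefty1 was at 93.0 CPM, so the E12.5 level lay between those of the E13.5 groups. Lefty2 was at 38.5 and 117 CPM, 3.04-fold lower (2.72 to 3.40), with 19.5 CPM at 4 or more Nanos2 UMIs and 236 CPM at E12.5.

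The ligand Nodal and its co-receptor Tdgf1 were below the minimum, at 3.23 and 7.95 CPM and at 3.46 and 10.3 CPM. After thinning, Lefty1 was seen in 31.9% of Nanos2-positive cells and 73.3% of 0-UMI cells, and Lefty2 in 33.8% and 70.4% (40.2% and 78.9%, and 41.7% and 77.1%, without thinning). In the weighted comparison Lefty1 was 2.30-fold and Lefty2 2.09-fold lower, and among low-cycle cells 2.61- and 2.85-fold. Both thus stayed past 1.5-fold in both comparisons, which do not make cell cycle share equal.

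Some early germ cell genes were lower as well. Of 14 measured primordial germ cell genes 6 were called lower and 1, Nanos3, higher, with 7 between and a median log2 of -0.49. Their summed level was 5561 and 5481 CPM, so the sum and the median differ in sign. The X-linked reproductive homeobox genes Rhox6 (chrX:37826910-37829857) and Rhox9 (chrX:37899097-37901770) had the smallest ratios. They are paralogs, so their reads may be shared between them. Rhox6 was at 4.80 CPM (3.47 to 6.46) and 42.5 CPM (40.4 to 44.6), 8.86-fold lower (6.55 to 12.3), and 292 CPM at E12.5. Rhox9 was at 8.37 CPM and 69.5 CPM, 8.30-fold lower (6.60 to 10.6), and 532 CPM at E12.5. In the 1-UMI cells they stood at 14.7 and 22.6 CPM. Rhox9 was seen in 10.2% of thinned Nanos2-positive cells and 40.5% of thinned 0-UMI cells (14.7% and 48.3% without thinning). When weighted, Rhox6 was 3.92-fold and Rhox9 3.65-fold lower, and among low-cycle cells 3.61- and 3.56-fold.

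Rhox5, the founding gene of the cluster, was at 182 and 297 CPM (1.63-fold lower). Kit, the receptor that carries survival signals to primordial germ cells, was at 9.14 and 21.8 CPM (2.38-fold lower). Tfap2c, a specification factor, was at 5.46 and 13.6 CPM (2.49-fold lower), and Prdm14, another, was at 7.58 and 13.2 CPM (1.74-fold lower). All 4 were higher at E12.5 than in either E13.5 group, at 871, 44.3, 35.2 and 17.6 CPM. Rhox6, Rhox9, Kit, Tfap2c and Prdm14 were called lower both after weighting and among low-cycle cells, and Rhox5 in neither.

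Pluripotency genes divided. Pou5f1, which drives the sorted reporter and was part of the germ rule, was at 712 and 704 CPM, and Sox2 was also at like levels. Of 17 measured genes 4 were called lower and 0 higher, beside 5.60% and 2.74% of all genes. L1td1, an RNA-binding protein of pluripotent cells, was at 25.5 and 83.8 CPM (3.28-fold lower, 2.87 to 3.77), from 51.7 CPM at 1 Nanos2 UMI to 13.8 CPM at 4 or more. Klf2 was at 24.1 and 55.3 CPM (2.30-fold lower), Nanog at 16.8 and 27.9 CPM (1.66-fold lower) and Klf5 at 51.0 and 83.7 CPM (1.64-fold lower), all transcription factors of the naive state. The list's median log2 was -0.09 in the main comparison and 0.02 in both the weighted and the low-cycle comparison, where Klf2 and L1td1 were called lower, joined by Nanog among low-cycle cells. L1td1 was 1.88-fold lower when weighted and 2.35-fold among low-cycle cells. Of the rule's other germ markers, Dppa3 was at 3247 and 2922 CPM and Dppa5a at 1466 and 2189 CPM.

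**Figure D4:**
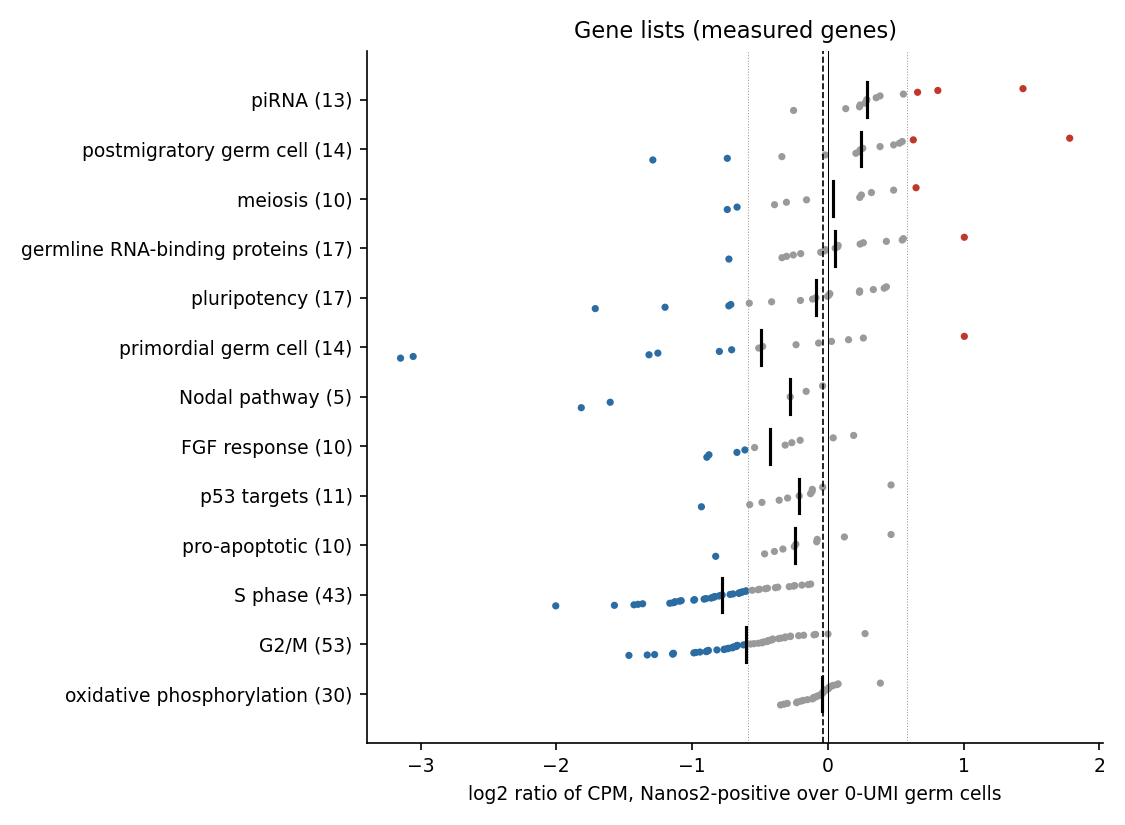
Log2 ratio of CPM, Nanos2-positive over 0-UMI E13.5 germ barcodes (horizontal), for the genes at 10 CPM or more of each list (rows, with the number of genes); points are genes (red higher, blue lower, grey between), black bars list medians, dotted lines 1.5-fold and the dashed line the median of all genes. The S phase (median -0.78) and G2/M (-0.60) rows lie to the left and the piRNA row (0.29) to the right.

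Genes of DNA replication and division were lower in the main comparison, as their summed share per cell already shows. Of 43 measured S phase genes 30 were lower and 0 higher (median log2 -0.78), and of 53 measured G2/M genes 27 were lower and 0 higher (median -0.60). The groups summed to 2862 against 4708 CPM and 6169 against 9399 CPM. Rrm2, a subunit of ribonucleotide reductase, was at 8.92 and 35.8 CPM (4.01-fold lower). Fbxo5, which restrains the anaphase-promoting complex, was at 16.8 and 66.8 CPM (3.97-fold lower). Mki67, the Ki-67 proliferation marker, was at 45.3 and 114 CPM, and went from 88.3 CPM at 1 Nanos2 UMI to 29.6 CPM at 4 or more. Tk1, thymidine kinase, was at 7.70 and 24.1 CPM.

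Of the replication-linked histone genes, which have near-identical copies and few poly(A) tails, Hist1h1b was at 32.5 and 119 CPM, Hist1h2ap at 38.5 and 129 CPM, Hist1h1a at 9.14 and 28.8 CPM and Hist1h1e at 28.7 and 87.6 CPM. The weighted comparison matches cells on these same lists, so it shrinks such differences by construction: 1 S phase gene and 0 G2/M genes were then called lower. Among low-cycle cells 6 S phase and 5 G2/M genes were still lower, Rrm2 and Mki67 among them. Hist1h1e and Hist1h1a were higher in both (log2 0.41 and 0.12 when weighted, 0.55 and 0.07 among low-cycle cells). Tuba3a, a testis tubulin, was at 73.0 and 179 CPM, with a log2 ratio of 0.01 when weighted, but it was still called lower among low-cycle cells (ratio 0.640).

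Regulators of G1 were called in both directions. Of 10 measured CDK inhibitors, pocket proteins and G1 cyclins with their kinases, 1 was higher and 2 lower, beside 2.74% and 5.60% of all genes. Cyclin E gene Ccne1 was at 8.70 and 23.4 CPM (2.69-fold lower) and its kinase Cdk2 at 8.25 and 13.6 CPM (1.64-fold lower), while Ccnd1, a D-type cyclin, was at 13.9 and 8.90 CPM (1.57-fold). The inhibitor Cdkn1c, p57, was at 96.0 and 72.1 CPM (1.33-fold), with 91.5 CPM in the 1-UMI cells and 19.8 CPM at E12.5. Cdkn1b, p27, was below the minimum at 13.7 and 8.11 CPM, as were Ccnd2 at 11.7 and 5.29 CPM and Cdk6 at 14.6 and 7.24 CPM. Rb1, the retinoblastoma protein, was at 24.2 and 21.6 CPM. None of the 10 was called after weighting or among low-cycle cells.

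Genes of cell death, the theme of the series, were seldom called, as were genes at large (2.74% higher and 5.60% lower). Of 10 measured pro-apoptotic genes 1 was lower and 0 higher (median log2 -0.24), and of 6 anti-apoptotic genes 1 was lower and 0 higher (median -0.10). Casp6, an executioner caspase, was at 7.25 and 12.8 CPM. Birc5, survivin, which also serves in mitosis, was at 99.3 and 183 CPM. Bax, the pore-forming death effector, was at 498 and 586 CPM. Pmaip1 (Noxa), a BH3-only death gene, was at 54.8 CPM (50.02 to 59.8) and 39.7 CPM (37.7 to 41.7), 1.38-fold, and was seen in 53.7% and 40.8% of thinned cells (66.7% and 52.4% without thinning).

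Of 11 measured genes on the p53 list, 10 had a ratio below 1 and 1, Pmaip1, above 1 (median log2 -0.21). The whole list summed to 510 against 635 CPM. Phlda3 was below the minimum, at 2.12 and 6.98 CPM. Trp53 was the only called gene of the 11, at 97.1 and 185 CPM (1.91-fold lower, 1.78 to 2.05). It went from 129 CPM at 1 Nanos2 UMI to 70.5 CPM at 4 or more. It was 1.40-fold lower when weighted and 1.63-fold among low-cycle cells. After weighting no gene of these 3 lists was called, and among low-cycle cells Trp53 and Casp6 were.

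Response genes of growth factor signals pointed both ways. Of 10 measured FGF receptors and response genes 4 were lower and 0 higher (median log2 -0.43), beside 5.60% and 2.74% of all genes. Dusp4, a phosphatase induced by MAP kinase, was at 16.1 and 29.8 CPM, the factor Etv1 at 18.0 and 33.0 CPM, and the receptors Fgfr1 and Fgfr2 at 13.49 and 21.5 CPM and at 10.3 and 15.7 CPM. After weighting, and among low-cycle cells, Etv1 alone was called. Of 7 measured immediate early genes Egr4 and Nab1 were higher, while Ier2 (40.9 and 62.2 CPM) and Dusp1 (15.7 and 25.02 CPM) were lower. Egr1, the family member best known as an early response gene, was at 16.7 and 17.8 CPM. Egr4 alone of the 7 was called after weighting, and among low-cycle cells Egr4 was higher and Ier2 lower. Its higher level was therefore not shared by the measured early response genes as a set.

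Sesn3, which restrains mTORC1 on lack of nutrients, and Ddit4, which does so under stress, were the 2 higher of 16 measured growth restraint and stress genes. Sesn3 was at 89.1 and 54.4 CPM (1.64-fold, 1.51 to 1.78) and Ddit4 at 93.0 and 60.0 CPM (1.55-fold, 1.43 to 1.68). Sesn3 was 1.21-fold higher when weighted, and Ddit4 was at log2 -0.02, so neither call was reached at like cell cycle share. None of 13 glycolysis, 30 oxidative phosphorylation, 9 heat shock and 12 mitochondrially encoded genes was called in either direction. Of all genes, 2.74% were called higher and 5.60% lower, so few calls were to be expected in lists of this size. Among low-cycle cells the glucose transporter gene Slc2a3, of the glycolysis list, was called lower (12 and 16.3 CPM over all cells). Ptgr1 and Gmpr were the only called genes of 13 prostaglandin and nucleotide enzymes (median log2 -0.006). Both are markers chosen with earlier results of these data known, so these 2 calls are a description only.

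Chromatin genes, like 91.7% of all genes, were mostly within 1.5-fold. None of 8 measured DNA methylation genes was called (median log2 -0.30). Of 22 repressive chromatin genes, the histone methyltransferase Ezh2 (78.7 and 151 CPM) and the deacetylase Hdac1 (71.6 and 113 CPM) were lower, and neither was called when weighted or among low-cycle cells. Morc1, a transposon silencing factor, was at 14.6 and 10.2 CPM (1.43-fold) and was called higher among low-cycle cells (1.72-fold). Tet2, which oxidises 5-methylcytosine, was below the minimum at 14.5 and 7.08 CPM. Among 9 measured imprinted genes, the growth-restraining Ndn was higher at 35.2 and 21.5 CPM and Gnas, a G protein subunit, was lower at 33.1 and 53.2 CPM. Neither was called after weighting, and Gnas alone was called among low-cycle cells.

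Nanos2-positive cells were themselves not uniform. The 305 with low cell cycle share had 123 CPM of Nanos2 and the other 76 had 81.1 CPM. Their median depths were 21028 and 27196 UMIs. Cells were selected on 2 or more Nanos2 UMIs at any depth, so the 2 Nanos2 levels are a description only. Egr4 was at 88.1 CPM in the 305 low-cycle cells and 49.99 CPM in the other 76. Nanos3 was at 103 and 55.7 CPM, and Taf7l at 31.0 and 11.8 CPM. Lefty1 was at 35.8 and 107 CPM, and L1td1 at 18.6 and 48.1 CPM. Within the 0-UMI cells the same division gave 43.3 and 21.9 CPM for Egr4, and 93.4 and 211 CPM for Lefty1. Both Nanos2 count and cell cycle share thus went with these levels. Among cells that were not low, the ratios of Nanos2-positive to 0-UMI cells were 2.28 for Egr4, 2.09 for Gtsf1, 2.30 for Ptgr1 and 2.32 for Gmpr. There Lefty1 was 1.96-fold, Lefty2 1.80-fold, Rhox6 6.65-fold and Rhox9 6.19-fold lower. These genes therefore had the same direction in cells with low and with higher division transcripts.

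**Figure D5:**
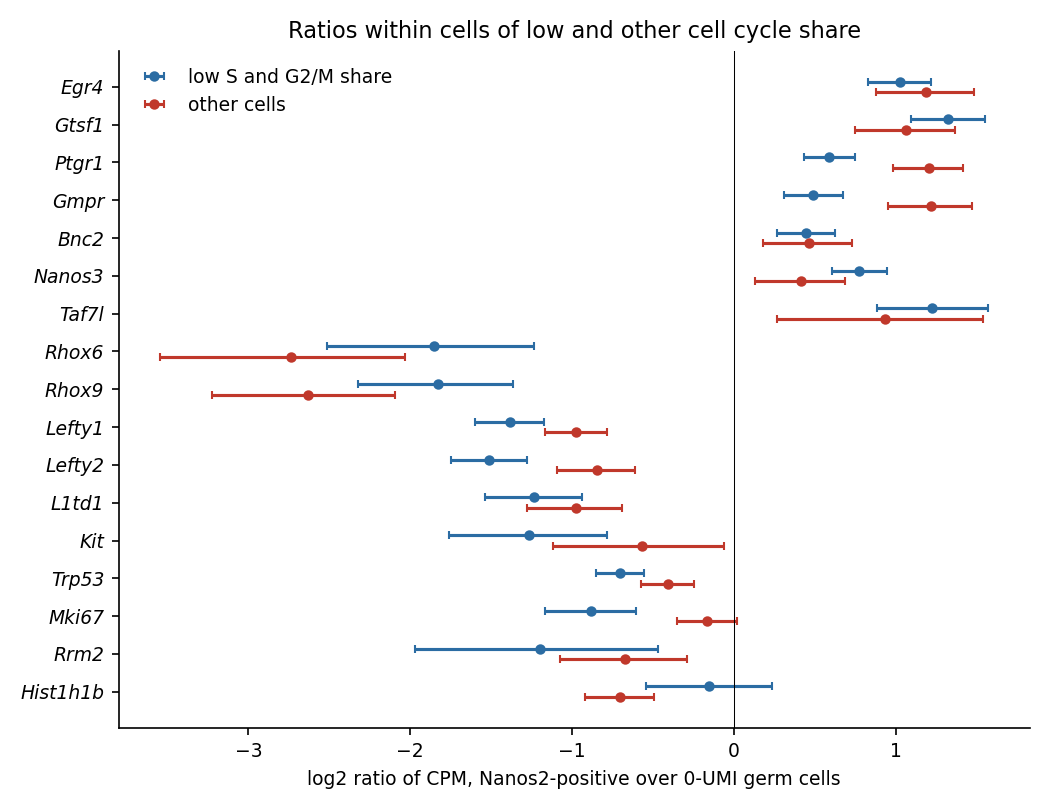
Log2 ratio of CPM, Nanos2-positive over 0-UMI E13.5 germ barcodes (horizontal, with 95% counting interval), for named genes (rows), within barcodes of low S phase and G2/M share (blue, 305 and 414 barcodes) and within the others (red, 76 and 1253 barcodes). Egr4 and Gtsf1 lie right of 0 and Rhox6, Rhox9, Lefty1 and Lefty2 left of 0 in both, while the Hist1h1b interval holds 0 among low barcodes.

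Some barcode sequences occurred in both libraries, and the cause was not tested. The E12.5 and E13.5 tables shared 24 barcode sequences, and 6 of these were Nanos2-positive cells. Without them 195 genes were higher and 392 lower, beside 187 and 383 with them.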

How the data were processed

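The deposited values were raw UMI counts per gene and barcode, 1 table per library, which the authors made with Cell Ranger (version not given) on mm10 (GRCm38), per the submitters' processing notes. Their annotation is not given in the sources at hand. The E13.5 table held 16430 genes and 59842242 UMIs, and that of E12.5 had 16180 genes and 60383440 UMIs.

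At E13.5, 231 barcodes had under 500 genes, 385 under 5000 UMIs, 131 had 10% or more mitochondrial UMIs and 120 under 0.2% germ markers (these overlap). Counts were summed over cells and expressed as CPM (per 1000000 UMIs): 8966398 UMIs in the Nanos2-positive cells, 37969457 in the 0-UMI cells. Levels have exact Poisson, ratios exact conditional binomial (Clopper-Pearson) and shares exact binomial 95% intervals, which cover counting error only. Cells of 1 library are not replicates, so no p-value or standard error was computed. A gene was called at 1.5-fold or more with an interval leaving out 1, among genes at 10 CPM or more over all E13.5 germ cells; in weighted comparisons on fold alone. A gene called between these 2 groups describes these cells.

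The cells, lists and rules were chosen with earlier results of these data known. A gene of the lists is not reported here. Named genes were the 12 highest and 12 lowest ratios among those genes with at least 20 CPM whose interval left out 1 (no predicted, haemoglobin, ribosomal protein or mitochondrial genes), the given markers, from each list its most abundant gene and at most 2 from either extreme, and 14 fixed genes. Other called list members, and Nodal, Cnot1, Rb1, Egr1, Sox2 and Pou5f1, were named after their values were seen. For shares of cells with a UMI, cells were thinned without replacement to 14500 UMIs, which left out 20 Nanos2-positive, 29 1-UMI and 176 0-UMI cells. The Sertoli-marker barcodes were not thinned; they are barcodes outside the germ rule with 3 or more Sertoli UMIs making up 0.5% or more of the total.

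Doublets were kept: Scrublet (scanpy 1.11.5, expected rate 0.06) called 7 of 2761 barcodes, 0 of them Nanos2-positive, too few to count as a working doublet screen. Alternatives were the depth of the compared cells, thinned membership, other Nanos2 minimums, equal weight per cell, stricter germ and cell filters, no Scrublet calls, no cells with somatic markers, another denominator, TMM factors (edgeR 4.0.16, R 4.3.3), other CPM and fold minimums and cell cycle weighting in 4 by 4 bins; the low-cycle cells and the removal of shared barcodes were added after seeing the data. Scripts used Python 3.11.15, numpy 2.4.6, scipy 1.17.1 and pandas 2.3.3. They were tested on simulated Poisson counts at the depths of this comparison, the model that the intervals assume. There 95.3% of intervals of 6634 unchanged genes held the true ratio. Of 67 genes set at 1.5-fold 56.7% were called, and 100% of 67 genes at 2-fold and of 66 genes at 3-fold. The simulation held no differences between cells, so it does not show how the intervals behave with them.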

Additional observations from a re-analysis of the deposited data

Results flagged for a closer look

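Nanos2 was also seen in cells that the comparison did not use. Among the 443 E13.5 barcodes outside the germ rule, 15 carried Nanos2, with 21 UMIs in all. Of these 15, 12 had 10% or more mitochondrial UMIs, 6 had under 5000 UMIs, and 12 held germ markers at 0.2% or more of UMIs. None of the 32 barcodes that passed the depth and mitochondrial limits but held fewer germ markers carried Nanos2. At E12.5, 19 of 2494 germ cells carried Nanos2, with 20 UMIs in all, or 0.335 CPM. No control sample shows what background these counts stand on.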

How the results depend on the processing

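The number of Nanos2-positive cells was 205 on thinned counts, 145 at 3 or more UMIs, 882 at 1 or more and 205 with the stricter cell filter (2000 genes, 5% mitochondrial), beside 381. Higher and lower genes numbered 307 and 666 at 3 or more UMIs, 86 and 145 at 1 or more, 254 and 509 on thinned counts, 24 and 59 with cell cycle weighting, 66 and 132 among low-cycle cells, 20 and 122 at a 50 CPM minimum, 639 and 778 at 2 CPM, and 514 (7.52%) and 874 (12.8%) at 1.3-fold, beside 187 and 383. Under the depth weighting, equal weight per cell, germ markers at 0.5%, the stricter cell filter, no Scrublet calls, no somatic markers, another denominator, TMM factors and no shared barcodes, higher genes ranged from 178 to 266 and lower from 306 to 404. With cell cycle weighting the direction turned for 5 of the 187 higher and 41 of the 383 lower genes, and among low-cycle cells for 1 and 17. Of the named genes, the direction turned with weighting for Hist1h2ap (log2 0.058), Hist1h1a (0.117), Hist1h1e (0.41), Tuba3a (0.0115), Hormad1 (0.0648) and Ddit4 (-0.0201), among low-cycle cells for Hist1h1a (0.0711), Hist1h1e (0.55) and Hbb-y (0.46), and without somatic markers for Hbb-y (0.26). The cause was not tested. No paired analysis was possible because there was 1 library per stage.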
